A study of Mus musculus with 30 samples.

Results

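SMAD and ID genes carry a signal from bone morphogenetic proteins (BMPs) and transforming growth factor beta (TGF-β) into the cells of a healing fracture. The set described here has 10 genes of these families: Smad1, Smad3, Smad4, Smad5, Smad6, Smad7, Smad9, Id1, Id2 and Id3. They are 10 of the 55416 gene IDs in the deposited count table, and all 10 passed the filter on low counts at each time. The study compared fracture callus from WT and P-Apex1KO mice by bulk RNA sequencing at 3, 6, 10 and 14 days post fracture (dpf). Apex1 encodes a DNA repair endonuclease that is also a redox factor. The 30 libraries comprised 4, 5, 4 and 4 WT mice and 4, 3, 3 and 3 P-Apex1KO mice at these times, with 1 callus and 1 mouse each. P-Apex1KO mice, whose samples bear the label Apex1 KO, carried Prrx1-Cre and 2 floxed alleles (Apex1 C/C). WT mice were littermates of several genotypes: floxed mice lacking Cre (Apex1 C/C or Apex1 C/+) and Prrx1-Cre mice with 1 floxed allele (Apex1 C/+), so a WT mouse may carry Cre, 1 floxed allele or both. Fractures were made in the tibia, closed and without stabilisation, at 7 to 12 weeks of age. Prrx1-Cre acts in limb bud mesenchyme and its descendants, so blood, vessel and other cells of the callus keep Apex1.

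In this pathway, BMP receptors phosphorylate SMAD1, SMAD5 and SMAD9. Of the SMADs in this set, SMAD3 is the one through which TGF-β and activin receptors act. The phosphorylated SMADs join SMAD4 and bind DNA, while SMAD6 and SMAD7 block the receptors or the activated SMADs and are themselves induced by the pathway, which closes a feedback loop. ID proteins, classic targets of BMP signalling, have a helix-loop-helix but no DNA-binding region, so they hold back the bHLH factors they pair with; BMP signalling is needed for cartilage and bone formation in fracture callus.

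Libraries held 18334389 to 43111491 counts on genes. Each of the 10 genes was counted in every library, with 46 to 717 reads for Smad9 and 1474 to 7347 for Id3. Levels are given as CPM, a gene's share of its library's counts put on a common scale, after TMM scaling over all 30 libraries, in the order of the replicate numbers. Apex1 served as a check of the genotype labels. At 3-dpf it stood at 30.5, 26.3, 33.2 and 31.9 CPM in WT and at 18.5, 28.7, 28.1 and 34.3 CPM in the libraries labelled P-Apex1KO. The 2 groups overlapped, with replicate 1 alone below every WT library, so the 3-dpf libraries are named by their labels. At 6-dpf Apex1 was 20.8, 25.3, 25.4, 28.3 and 20.4 CPM in WT and 15.2, 15.4 and 15.9 CPM in P-Apex1KO. At 10-dpf it was 23.5, 17.0, 27.4 and 27.7 against 13.7, 17.0 and 15.6 CPM, and at 14-dpf 19.6, 27.2, 22.9 and 26.4 against 14.8, 18.3 and 14.0 CPM. Every P-Apex1KO library lay below every WT library at 6-, 10- and 14-dpf, though 1 library of each genotype had the same rounded value at 10-dpf. The log2 fold change of Apex1 in edgeR, with its standard error, was -0.15 ± 0.186 at 3-dpf (Benjamini-Hochberg adjusted p 0.927), -0.67 ± 0.113 at 6-dpf (adjusted p 0.0071), -0.65 ± 0.128 at 10-dpf (adjusted p 0.0278) and -0.29 ± 0.189 at 14-dpf (adjusted p 0.367).

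None of the 10 genes passed an adjusted p of 0.05 at 3-dpf in edgeR, nor did any of 19866 genes tested (0.0%). At an unadjusted p under 0.05 the counts were 4 of the 10 and 1216 genes, and DESeq2 called 0 of the 10 and 78 genes. No member had all libraries labelled P-Apex1KO below all WT libraries at that time, a separation seen in 1.73% of all genes. At 6-dpf, 3 of 10 were called, all lower in P-Apex1KO, against 10.9% of all genes called and 5.61% called lower. Groups did not overlap for 4 of 10, P-Apex1KO being below, against 11.1% of genes. At 10-dpf, 4 of 10 were called, all lower (all genes: 6.46% called, 3.44% lower), and 6 of 10 did not overlap (all genes: 11.7%). At 14-dpf, 7 of 10 were called, all lower (all genes: 11.3% called, 7.04% lower), and 8 of 10 did not overlap (all genes: 24.7%). The median log2 fold change of the 10 genes went from -0.09 at 3-dpf through -0.29 and -0.33 to -0.72 at 14-dpf, beside all-gene medians of 0.0, 0.01, 0.0 and 0.04. Callus is a mixture, so fewer cells of a type and less RNA per cell cannot be told apart in any of these values.

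These counts moved with single mice. At 6-dpf 1 of 10 genes was called without any 1 of WT replicates 3, 4 and 5 or P-Apex1KO replicates 1 and 3, and 6 without P-Apex1KO replicate 2. At 10-dpf the count was 0 without WT replicate 1 and 0 without P-Apex1KO replicate 1, both females, and 2 without WT replicate 2 or P-Apex1KO replicate 3. At 14-dpf it was 4 without WT replicate 2 and between 5 and 8 without each other mouse that could be left out. Over all genes, the 2212 calls at 6-dpf became 890 without WT replicate 4, and the 1221 calls at 10-dpf became 42 without P-Apex1KO replicate 1. Sex was part of each model, and at 14-dpf the 3 P-Apex1KO mice were females while WT had 1 female (replicate 1) and 3 males. The fold changes at that time therefore set the 3 P-Apex1KO females against 1 WT mouse, and a fit with no sex term called 8 of 10 genes (37.2% of all genes). That mouse stood apart from the other WT mice of 14-dpf in its summed markers of muscle (3914.1 CPM, the others 1136.5 to 1341.6) and of chondrocytes (3083.4 CPM, the others 6223.5 to 8203.5), and what this did to the fold changes was not tested. WT males enter these fits through the sex term, so leaving out a WT male bears on adjusted p and hardly on the fold change. Scaling by library size alone shifted the all-gene median by 0.19 at 6-dpf and 0.27 at 14-dpf, and called 1 of 10 genes at 6-dpf, 3 at 10-dpf and 4 at 14-dpf. Under that scaling 22.6%, 35.3% and 29.0% of all calls were lower in P-Apex1KO at 6-, 10- and 14-dpf, in place of 51.4%, 53.3% and 62.2%. The share was 49.4% at 14-dpf with no sex term in edgeR or DESeq2, and 41.4% at 10-dpf with the replicate number as a block in place of sex.

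**Figure D1:**
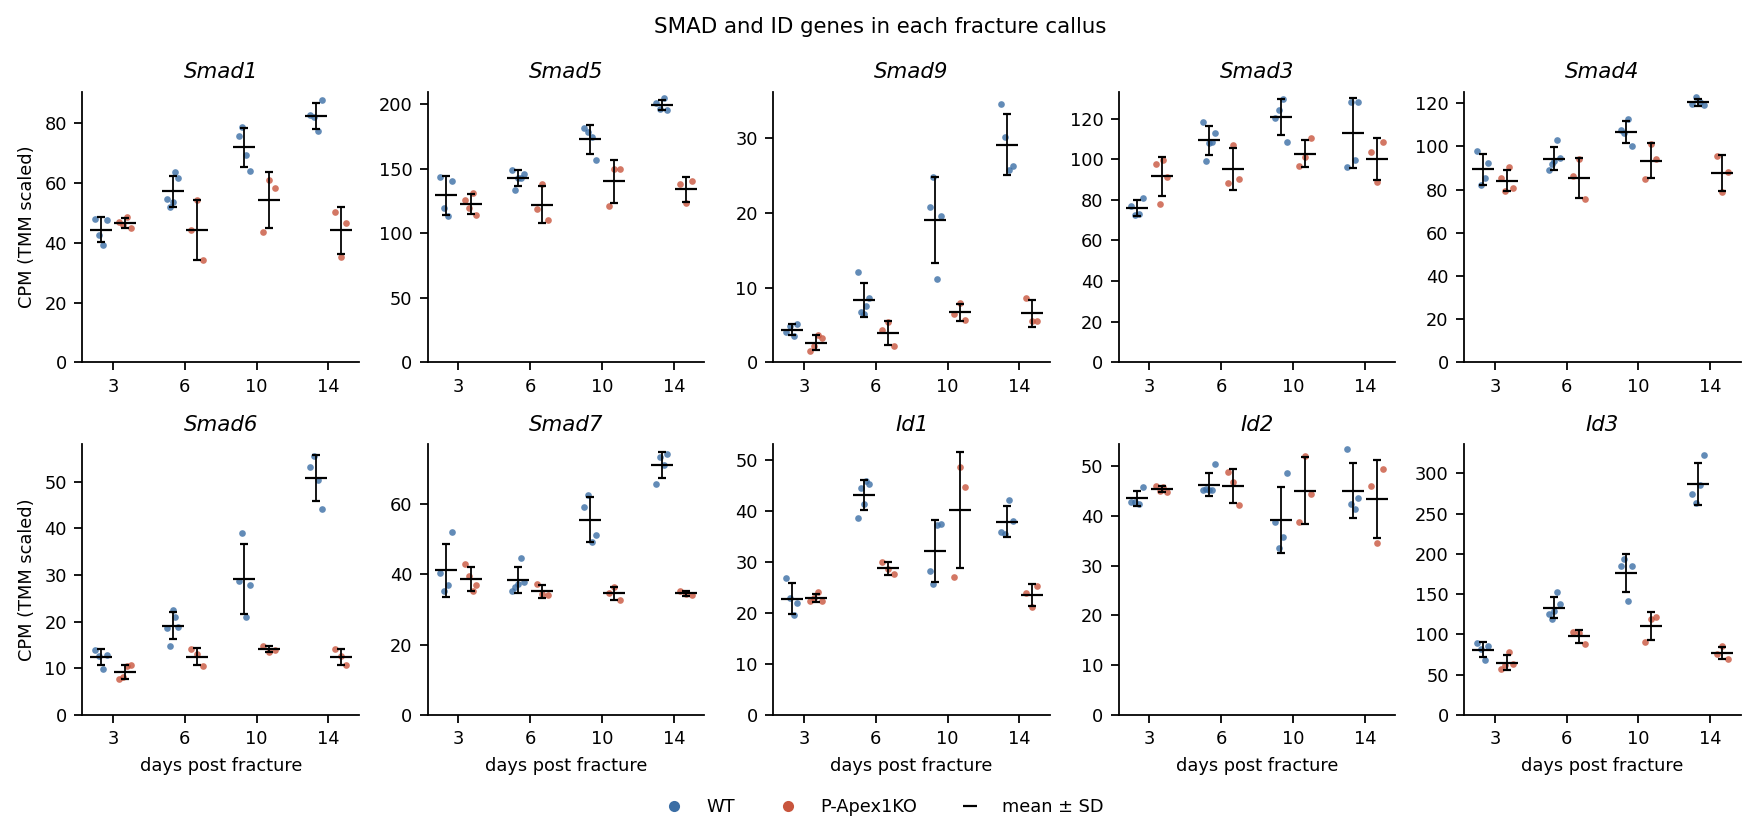
Level of each of the 10 genes in CPM (vertical axis) by dpf (horizontal axis), with 1 point per mouse, WT and P-Apex1KO side by side, and bars at the group mean with SD. Smad1, Smad4, Smad5, Smad6, Smad7, Smad9 and Id3 have their highest group mean in WT at 14-dpf. At that time WT libraries hold 44.2 to 55.6 CPM of Smad6 and P-Apex1KO libraries 10.6 to 14.1.

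Promoters are shown for Smad6, Smad9 and Id3, the 3 members with the largest differences among those whose promoters were read. They came from RefSeq (GRCm38.p6, 250 bases before to 50 after the start). Entries were read for 7 members (9 entries). Id1, Smad4 and Smad7 were not among the members read, and their promoters were not searched. Capitals mark short words that SMAD proteins are known to bind, searched on both strands: the word GGCGCC, the word CAGAC (or GTCTG) and the word GTCTAGAC. Smad6 lies on the minus strand at chr9:64022010-64022309 and holds GTCTAGAC at -4. Smad9 lies on the plus strand at chr3:54755332-54755631 and holds GGCGCC at -51. Id3 lies on the plus strand at chr4:136143572-136143871 and holds CAGAC or GTCTG at -167 and -68. Of 32851 promoters of this length, 0.213% hold GTCTAGAC, 11.9% GGCGCC and 49.6% CAGAC or GTCTG. GTCTAGAC overlaps neither of the other words as spelled. Smad1 and Smad3 hold none of the 3 words in this window and Id2 holds GGCGCC at -231. Smad5 has 3 entries, of which 2 overlap and share 1 GGCGCC (at 24 and at -19 from their starts), and the other holds CAGAC or GTCTG at -21. A match is a description of letters and was not tested as a binding site.
Smad6: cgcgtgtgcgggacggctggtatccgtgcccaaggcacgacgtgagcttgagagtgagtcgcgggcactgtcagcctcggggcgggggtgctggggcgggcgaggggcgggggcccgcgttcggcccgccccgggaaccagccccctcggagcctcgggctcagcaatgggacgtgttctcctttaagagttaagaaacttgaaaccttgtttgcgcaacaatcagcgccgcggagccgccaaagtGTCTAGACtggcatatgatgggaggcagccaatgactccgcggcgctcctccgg
Smad9: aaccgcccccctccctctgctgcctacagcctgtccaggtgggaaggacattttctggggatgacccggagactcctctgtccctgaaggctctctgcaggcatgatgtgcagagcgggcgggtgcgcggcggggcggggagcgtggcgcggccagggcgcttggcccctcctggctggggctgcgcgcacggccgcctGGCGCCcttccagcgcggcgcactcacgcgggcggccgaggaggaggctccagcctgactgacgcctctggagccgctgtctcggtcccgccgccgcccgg
Id3: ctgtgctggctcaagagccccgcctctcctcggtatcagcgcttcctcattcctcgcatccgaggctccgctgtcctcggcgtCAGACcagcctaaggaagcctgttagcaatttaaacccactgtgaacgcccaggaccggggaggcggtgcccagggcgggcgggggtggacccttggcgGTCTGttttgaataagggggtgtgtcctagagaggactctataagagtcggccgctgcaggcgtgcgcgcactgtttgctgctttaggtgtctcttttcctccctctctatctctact

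Gene IDs and positions (GRCm39) place the SMAD genes on 5 chromosomes. Smad1 (ENSMUSG00000031681) is at chr8:80065023-80126168, Smad5 (ENSMUSG00000021540) at chr13:56850797-56890190 and Smad9 (ENSMUSG00000027796) at chr3:54662963-54708680. Smad3 (ENSMUSG00000032402) at chr9:63554049-63665476 and Smad6 (ENSMUSG00000036867) at chr9:63860341-63929793 are on 1 chromosome and strand, and Smad4 (ENSMUSG00000024515, chr18:73769343-73836915) and Smad7 (ENSMUSG00000025880, chr18:75500374-75529006) share a chromosome but lie on opposite strands. Id1 (ENSMUSG00000042745) is on chromosome 2, Id2 (ENSMUSG00000020644) at chr12:25143798-25147282 and Id3 (ENSMUSG00000007872) at chr4:135870808-135873066.

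To compare genes with each other, levels were divided by the length of the canonical transcript (CPM per kb). Id3 was the highest and Smad9 the lowest of the 10 in all 8 groups. In WT at 14-dpf the means per kb were 224.3 ± 20.4 (SD) for Id3, 32.8 ± 2.68 for Id1, 28.5 ± 0.599 for Smad5 and 26.4 ± 1.37 for Smad1. They were followed by Smad3 (21.3 ± 3.29), Smad4 (19.5 ± 0.276), Id2 (18.3 ± 2.26), Smad6 (16.6 ± 1.61), Smad7 (15.8 ± 0.846) and Smad9 (5.38 ± 0.757). Smad5 overlapped Smad1, and each neighbouring pair from Smad3 down to Smad7 overlapped, while Id3, Id1 and Smad9 stood apart. In P-Apex1KO at 14-dpf Id3 led at 60.0 ± 6.25 CPM per kb, a series of overlapping neighbours ran from Id1 (20.3 ± 1.79) to Smad1 (14.1 ± 2.53), and Smad7 (7.69 ± 0.157), Smad6 (4.07 ± 0.575) and Smad9 (1.21 ± 0.334) stood apart below them. In WT at 3-dpf the 3 lowest were likewise Smad7 (9.15 ± 1.67), Smad6 (4.03 ± 0.563) and Smad9 (0.809 ± 0.135). Smad6, Smad7 and Smad9 had the 3 lowest means per kb in all 8 groups, and Smad6 overlapped Smad7 in WT at 10- and 14-dpf.

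**Figure D2:**
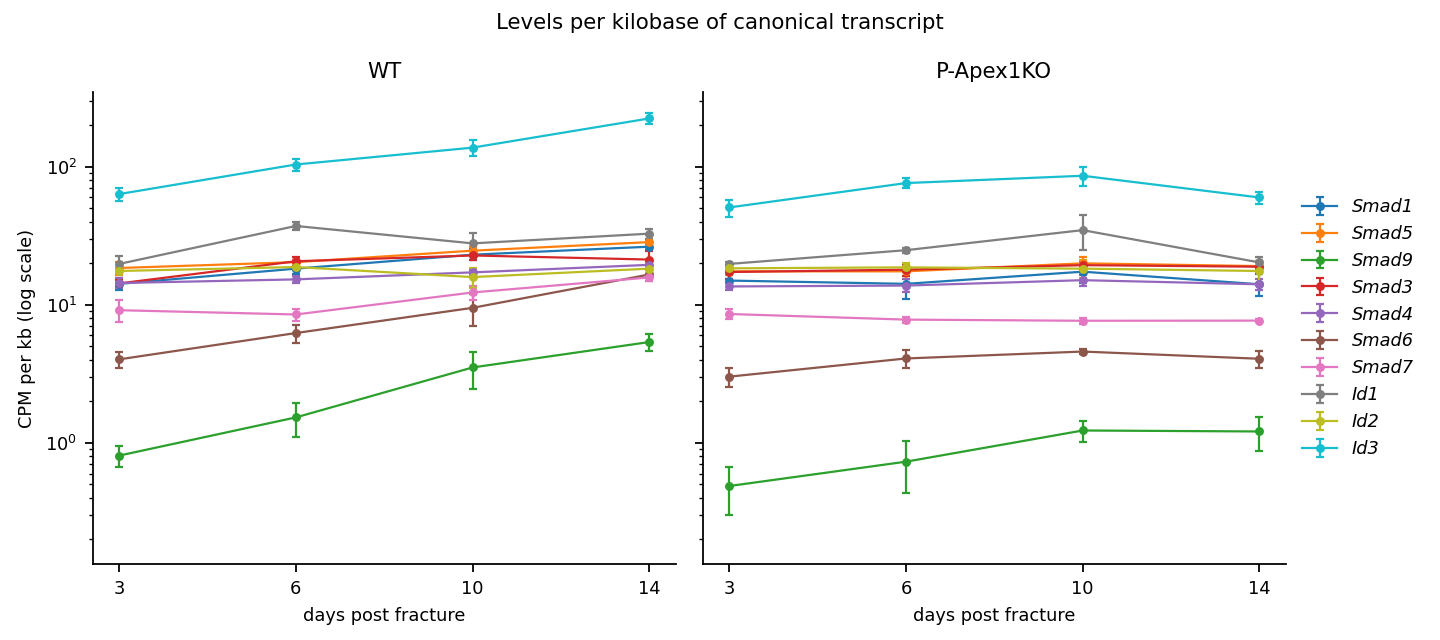
Mean level of each gene in CPM per kb of canonical transcript (log axis) by dpf for WT and P-Apex1KO, with bars for the SD over mice. Id3 is highest and Smad9 lowest in each of the 8 groups, and Smad6 stands at 4.03 CPM per kb at 3-dpf and 16.6 at 14-dpf in WT, against 3.02 and 4.07 in P-Apex1KO.

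Smad1, Smad5 and Smad9 encode the SMADs that BMP receptors activate. Smad1 was 39.4 to 48.0 CPM in WT and 45.0 to 48.8 CPM in libraries labelled P-Apex1KO at 3-dpf, with overlap, and at 6-dpf 52.0 to 63.8 against 34.3 to 54.4 CPM. At 10-dpf it was 75.6, 78.9, 69.3 and 64.2 CPM in WT and 43.5, 60.9 and 58.5 CPM in P-Apex1KO. By 14-dpf Smad1 was at 82.7, 82.0, 77.5 and 87.9 CPM in WT and 50.4, 35.3 and 46.7 CPM in P-Apex1KO. Groups were separate at both later times, with the gap widest at 14-dpf. The edgeR log2 fold change of Smad1 at 14-dpf was -0.87 ± 0.174 (adjusted p 0.0185), below WT in 3 of 3 mice. It was 0.06 ± 0.0765 at 3-dpf (adjusted p 0.93), -0.37 ± 0.146 at 6-dpf (adjusted p 0.143) and -0.39 ± 0.128 at 10-dpf (adjusted p 0.109). Leaving out P-Apex1KO 6-dpf replicate 2, the highest of its group, gave -0.53 (adjusted p 0.0298), the fit of all 30 samples in 1 model called it at 6-dpf too (-0.40, adjusted p 0.0344), and leaving out WT 14-dpf replicate 2 gave -0.87 (adjusted p 0.0531). With library size alone the 14-dpf value was -0.60 (adjusted p 0.0503, the largest over the alternatives with all mice, which began at 4.39e-09).

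Smad5 encodes the closest relative of SMAD1, and its groups overlapped at 3- and 6-dpf. It was 113.4 to 143.1 CPM in WT and 113.9 to 131.2 CPM in libraries labelled P-Apex1KO at 3-dpf, and 133.1 to 149.2 against 110.0 to 137.8 CPM at 6-dpf. At 10-dpf Smad5 was 181.6, 177.9, 174.3 and 156.5 CPM in WT and 120.9, 149.3 and 150.0 CPM in P-Apex1KO. Smad5 at 14-dpf was 200.4, 196.2, 204.6 and 195.5 CPM in WT and 138.3, 123.0 and 140.0 CPM in P-Apex1KO. WT libraries at 14-dpf lay close together, and all 3 P-Apex1KO libraries lay far below them. The log2 fold change in edgeR was -0.55 ± 0.109 at 14-dpf (adjusted p 0.0181) and -0.28 ± 0.0979 at 10-dpf (adjusted p 0.124), after -0.09 ± 0.0853 at 3-dpf (adjusted p 0.904) and -0.21 ± 0.0972 at 6-dpf (adjusted p 0.201). The 14-dpf call was lost without WT replicate 2, 3 or 4 (-0.55 each, adjusted p 0.0502 to 0.0564) and with library size alone (-0.28, adjusted p 0.14, from 1.8e-10 to 0.14 over the alternatives). Calls appeared without P-Apex1KO 6-dpf replicate 2 (-0.31, adjusted p 0.0469) and without WT 10-dpf replicate 4 (-0.36, adjusted p 0.046). They also appeared at both times with all 30 samples in 1 model (-0.25, adjusted p 0.0437, and -0.29, adjusted p 0.0411). With library size alone the 6-dpf value was -0.03 (adjusted p 0.825).

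Smad9 encodes the third and rarest BMP SMAD. It was 4.12, 4.8, 3.48 and 5.12 CPM in WT at 3-dpf and 1.46, 2.16, 3.66 and 3.26 CPM in the libraries labelled P-Apex1KO. At 6-dpf Smad9 was 12.1, 6.72, 6.51, 7.56 and 8.56 CPM in WT and 4.31, 5.35 and 2.2 CPM in P-Apex1KO. The groups touched at 3-dpf, where 1 library labelled P-Apex1KO exceeded the lowest WT library, and were separate at 6-dpf. At 10-dpf it was 20.7, 24.8, 11.1 and 19.6 CPM in WT and 6.47, 7.93 and 5.6 CPM in P-Apex1KO. Smad9 at 14-dpf was 34.5, 30.1, 25.7 and 26.2 CPM in WT and 8.64, 5.49 and 5.53 CPM in P-Apex1KO. Each P-Apex1KO library at 14-dpf stayed below all WT libraries of 10-dpf too, and WT 10-dpf replicate 3 was the lowest of its group. Smad9 was lower in P-Apex1KO by a log2 fold change of -1.39 ± 0.251 at 10-dpf (edgeR adjusted p 0.0245, 2.62-fold) and -2.36 ± 0.227 at 14-dpf (adjusted p 0.00123, 5.13-fold), in 3 of 3 mice each time. At 3-dpf it was -0.70 ± 0.29 (adjusted p 0.785) and at 6-dpf -0.98 ± 0.303 (adjusted p 0.069). The 10-dpf call was lost without WT replicate 1 or 2 or P-Apex1KO replicate 1 or 3 (-1.40 to -1.18, adjusted p 0.0636 to 0.182), and a 6-dpf call appeared without P-Apex1KO replicate 2 (-1.34, adjusted p 0.0192), in DESeq2 (-0.99, adjusted p 0.0105), with all 30 samples in 1 model (adjusted p 0.0162) and with no sex term (-1.06, adjusted p 0.0396), in a range of 0.0105 to 0.0856. The 14-dpf call held without each of 3 P-Apex1KO mice (-2.59 to -2.25) and each WT male.

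Per kb, Smad9 made up 2.42 ± 0.344% (SD) of the BMP SMAD transcripts (Smad1, Smad5 and Smad9) in WT at 3-dpf, 3.8 ± 0.961% at 6-dpf, 6.83 ± 1.84% at 10-dpf and 8.92 ± 1.14% at 14-dpf. In P-Apex1KO the share was 1.48 ± 0.549%, 2.2 ± 0.604%, 3.22 ± 0.623% and 3.49 ± 0.714% at the same times. Shares of 6- and 10-dpf were not compared, since the sample names change between them. The ranges of the 2 genotypes did not overlap at any of the 4 times, the closest being 2.08% as the lowest WT value and 1.93% as the highest value of the libraries labelled P-Apex1KO at 3-dpf. The share itself was not tested.

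Smad3, the only gene of this set for a SMAD activated by TGF-β and activin receptors, gave no call at any time. It was 77.1, 72.6, 72.9 and 80.8 CPM in WT at 3-dpf and 97.5, 78.0, 99.4 and 91.4 CPM in the libraries labelled P-Apex1KO, of which 3 lay above all WT libraries. At 14-dpf it was 96.3, 128.0, 99.5 and 128.0 CPM in WT and 103.6, 88.6 and 108.3 CPM in P-Apex1KO, with the groups mixed. WT ranged from 98.9 to 118.3 CPM at 6-dpf and from 108.5 to 129.7 CPM at 10-dpf, and P-Apex1KO from 88.4 to 107.1 and from 96.9 to 110.3 CPM. The log2 fold changes in edgeR were 0.28 ± 0.0906 at 3-dpf (adjusted p 0.768), -0.19 ± 0.0997 at 6-dpf (adjusted p 0.278), -0.20 ± 0.0874 at 10-dpf (adjusted p 0.196) and 0.09 ± 0.173 at 14-dpf (adjusted p 0.772). At 14-dpf the sign turned with no sex term (-0.11, adjusted p 0.513, from 0.156 to 0.833 over the alternatives). At 6-dpf the value was 0.00 under library size alone.

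Smad4, the partner shared by both branches, kept a narrow range. It was 82.0 to 97.8 CPM in WT and 79.4 to 90.3 CPM in libraries labelled P-Apex1KO at 3-dpf, 89.2 to 103.1 against 75.8 to 94.0 CPM at 6-dpf, and 100.2 to 112.8 against 84.7 to 100.9 CPM at 10-dpf. At 14-dpf Smad4 was 119.7, 122.9, 120.3 and 118.9 CPM in WT and 95.5, 78.8 and 88.2 CPM in P-Apex1KO, with no overlap. The edgeR log2 fold change at 14-dpf was -0.42 ± 0.115 (adjusted p 0.0566), past the threshold without P-Apex1KO replicate 1 (-0.47) or replicate 2 (-0.35), where adjusted p was 0.0264 to 0.0282, with the replicate block (-0.43, adjusted p 0.0406), with all 30 samples in 1 model (-0.41, adjusted p 0.000656) and with no sex term (-0.40, adjusted p 0.00332, from 2.1e-05 to 0.442 over the alternatives). At 3-, 6- and 10-dpf it was -0.09 ± 0.0754 (adjusted p 0.891), -0.15 ± 0.0935 (adjusted p 0.362) and -0.18 ± 0.0787 (adjusted p 0.213). With library size alone Smad4 turned to 0.03 at 6-dpf and was -0.15 at 14-dpf (adjusted p 0.442).

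Smad6 encodes an inhibitor that acts mainly on the BMP branch. It was 13.9, 12.7, 9.87 and 12.8 CPM in WT at 3-dpf and 7.74, 8.15, 10.5 and 10.6 CPM in the libraries labelled P-Apex1KO. At 6-dpf Smad6 was 18.6, 14.8, 22.4, 21.0 and 18.8 CPM in WT and 14.1, 13.1 and 10.4 CPM in P-Apex1KO. Groups overlapped at 3-dpf through WT replicate 3 and were separate at 6-dpf by a small margin. At 10-dpf it was 28.7, 39.1, 20.9 and 27.8 CPM in WT and 14.7, 13.5 and 14.0 CPM in P-Apex1KO, and at 14-dpf 53.1, 55.6, 50.3 and 44.2 against 14.1, 12.6 and 10.6 CPM. Libraries of P-Apex1KO stayed between 7.74 and 14.7 CPM at all 4 times. Smad6 was lower in P-Apex1KO by a log2 fold change of -0.56 ± 0.148 at 6-dpf (edgeR adjusted p 0.041), -0.95 ± 0.156 at 10-dpf (adjusted p 0.0173) and -2.06 ± 0.169 at 14-dpf (adjusted p 0.000883, 4.17-fold), in 3 of 3 mice each time. At 3-dpf it was -0.42 ± 0.159 (adjusted p 0.768). The 6-dpf call was lost without WT replicate 3, 4 or 5 or P-Apex1KO replicate 1 or 3 (-0.61 to -0.42, adjusted p 0.0595 to 0.14). It was also lost with library size alone (-0.37, adjusted p 0.0916) and with the replicate block in place of sex (-0.56, adjusted p 0.19). Its adjusted p ran from 0.00836 to 0.19 over the alternatives with all mice. The 10-dpf call was lost without WT replicate 1 or P-Apex1KO replicate 1 (-0.99 to -0.83, adjusted p 0.058 to 0.131). The 14-dpf call held without each P-Apex1KO mouse (-2.14 to -1.96) and each WT male.

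Smad7, which inhibits both branches, parted later. Its WT libraries held 35.3 to 52.0 CPM at 3-dpf and 35.2 to 44.8 CPM at 6-dpf, and those of P-Apex1KO 35.3 to 42.9 and 34.1 to 37.3 CPM, with overlap at both times. At 10-dpf Smad7 was 59.2, 62.7, 49.3 and 51.3 CPM in WT and 34.6, 36.4 and 32.7 CPM in P-Apex1KO. At 14-dpf it was 65.8, 73.4, 71.3 and 74.4 CPM in WT and 35.4, 34.4 and 34.1 CPM in P-Apex1KO. The 3 P-Apex1KO libraries of 14-dpf lay close together and far from WT. Smad7 was lower in P-Apex1KO by -0.62 ± 0.0863 on the log2 scale at 10-dpf (edgeR adjusted p 0.0126) and -0.89 ± 0.0982 at 14-dpf (adjusted p 0.00204, 1.85-fold), in 3 of 3 mice each time, with -0.15 ± 0.103 at 3-dpf (adjusted p 0.876) and -0.13 ± 0.0983 at 6-dpf (adjusted p 0.462). The 10-dpf call was lost without WT replicate 1 or P-Apex1KO replicate 1 (-0.62 to -0.54, adjusted p 0.0561 to 0.0801), and the 6-dpf sign turned with library size alone (0.06). Without each P-Apex1KO mouse (-0.89 to -0.88) and each WT male the 14-dpf call held.

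Taken per kb, Smad6 plus Smad7 came to 39.2 ± 2.8% (SD) of the summed level of Smad1, Smad5 and Smad9 in WT at 3-dpf, 36.7 ± 3.12% at 6-dpf, 42.5 ± 5.06% at 10-dpf and 53.8 ± 3.04% at 14-dpf. In P-Apex1KO the ratio stayed between 32.2 ± 5.46% and 37.3 ± 5.27%. At 14-dpf the lowest WT library (50.8%) was above the highest P-Apex1KO library (39.3%), and at 3-, 6- and 10-dpf the ranges overlapped. This ratio was not tested.

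Id1 encodes an ID protein induced by BMP signalling in many cell types. It was 26.8, 22.9, 19.5 and 22.0 CPM in WT at 3-dpf and 22.3, 22.9, 24.0 and 22.3 CPM in the libraries labelled P-Apex1KO. At 6-dpf Id1 was 38.6, 44.4, 41.4, 45.8 and 45.2 CPM in WT and 30.01, 28.6 and 27.6 CPM in P-Apex1KO. WT libraries were thus well above P-Apex1KO at 6-dpf after a start at the same level. At 10-dpf it was 28.2, 25.7, 37.2 and 37.5 CPM in WT and 27.1, 48.7 and 44.6 CPM in P-Apex1KO, and at 14-dpf 35.8, 35.4, 42.1 and 38.1 against 23.8, 21.2 and 25.3 CPM. The low libraries of 10-dpf in both genotypes were the females, and the groups were separate again at 14-dpf. Id1 was lower in P-Apex1KO by -0.59 ± 0.089 on the log2 scale at 6-dpf (edgeR adjusted p 0.00454) and -0.57 ± 0.148 at 14-dpf (adjusted p 0.0456), in 3 of 3 mice each time. It was -0.01 ± 0.101 at 3-dpf (adjusted p 0.996) and 0.23 ± 0.0892 at 10-dpf (adjusted p 0.155). The 6-dpf call was lost with the replicate number as a block in place of sex (-0.52, adjusted p 0.0503). The 14-dpf call was lost without WT replicate 2, 3 or 4 or P-Apex1KO replicate 1 (-0.58 to -0.57, adjusted p 0.0531 to 0.0959) and with library size alone (-0.31, adjusted p 0.205, from 3.83e-07 to 0.205 over the alternatives). Whether the genotype difference of Id1 changed between 6- and 10-dpf was not tested, since the sample names change there.

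Id2, an ID gene expressed in many tissues, gave no call at any time. It ranged from 42.4 to 45.8 CPM in WT and from 44.8 to 46.0 CPM in libraries labelled P-Apex1KO at 3-dpf, and from 45.2 to 50.4 against 42.2 to 48.9 CPM at 6-dpf. At 10-dpf it ranged from 33.6 to 48.7 against 38.7 to 52.1 CPM and at 14-dpf from 41.3 to 53.4 against 34.6 to 49.5 CPM. The groups overlapped at each time. The edgeR log2 fold changes of Id2 were 0.06 ± 0.0676 at 3-dpf (adjusted p 0.912), 0.02 ± 0.0803 at 6-dpf (adjusted p 0.932), 0.19 ± 0.122 at 10-dpf (adjusted p 0.392) and -0.26 ± 0.182 at 14-dpf (adjusted p 0.389). Under no sex term and under library size alone the 14-dpf value was 0.00.

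Id3, per kb the most abundant of the 10 genes, had a wider gap than Id1 and Id2 at 10- and 14-dpf. At 6-dpf its gap was narrower than that of Id1 (log2 fold change -0.44 against -0.59). The genes were not tested against each other. Id3 was 88.9, 82.1, 68.2 and 85.1 CPM in WT at 3-dpf and 56.8, 61.8, 78.0 and 63.0 CPM in the libraries labelled P-Apex1KO. At 6-dpf Id3 was 125.9, 118.7, 128.6, 152.9 and 138.3 CPM in WT and 102.4, 102.2 and 87.8 CPM in P-Apex1KO. At 3-dpf 1 library labelled P-Apex1KO reached into the WT range, and at 6-dpf none did. At 10-dpf it was 185.1, 193.1, 141.7 and 184.6 CPM in WT and 90.0, 119.5 and 121.0 CPM in P-Apex1KO. Id3 at 14-dpf was 274.7, 263.1, 285.8 and 323.2 CPM in WT and 75.9, 85.0 and 69.1 CPM in P-Apex1KO. Id3 was lower in P-Apex1KO by a log2 fold change of -0.44 ± 0.108 at 6-dpf (edgeR adjusted p 0.0304), -0.65 ± 0.143 at 10-dpf (adjusted p 0.0368) and -1.80 ± 0.145 at 14-dpf (adjusted p 0.000867, 3.48-fold), in 3 of 3 mice each time. At 3-dpf it was -0.31 ± 0.115 (adjusted p 0.768). The 6-dpf call was lost without WT replicate 3, 4 or 5 or P-Apex1KO replicate 1 or 3 (-0.52 to -0.34, adjusted p 0.0531 to 0.0889). It was also lost with library size alone (-0.25, adjusted p 0.0588) and with the replicate block in place of sex (-0.35, adjusted p 0.144). Its adjusted p ran from 0.00489 to 0.144 over the alternatives with all mice. The 10-dpf call held without WT replicate 3 and was lost without any other mouse (-0.72 to -0.44, adjusted p 0.0536 to 0.206). It was also lost with the replicate block in place of sex (-0.63, adjusted p 0.0529) and with library size alone (-0.58, adjusted p 0.0603). Over the alternatives with all mice its adjusted p ran from 0.000695 to 0.0603. The 14-dpf call held without each P-Apex1KO mouse (-1.89 to -1.74) and each WT male.

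Id3 made up 62.8 ± 1.24% (SD) of the sum of Id1, Id2 and Id3 per kb in WT at 3-dpf, 64.9 ± 1.93% at 6-dpf, 75.7 ± 4.7% at 10-dpf and 81.4 ± 1.33% at 14-dpf. In P-Apex1KO it made up 56.8 ± 2.88%, 63.6 ± 0.998%, 62.1 ± 2.34% and 61.2 ± 5.55%. The lowest WT share at 14-dpf was 80.3% and the highest P-Apex1KO share 67.2%. Id3 led in both genotypes at each time, and its share was below WT without overlap at 3-, 10- and 14-dpf. The share was not tested.

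**Figure D3:**
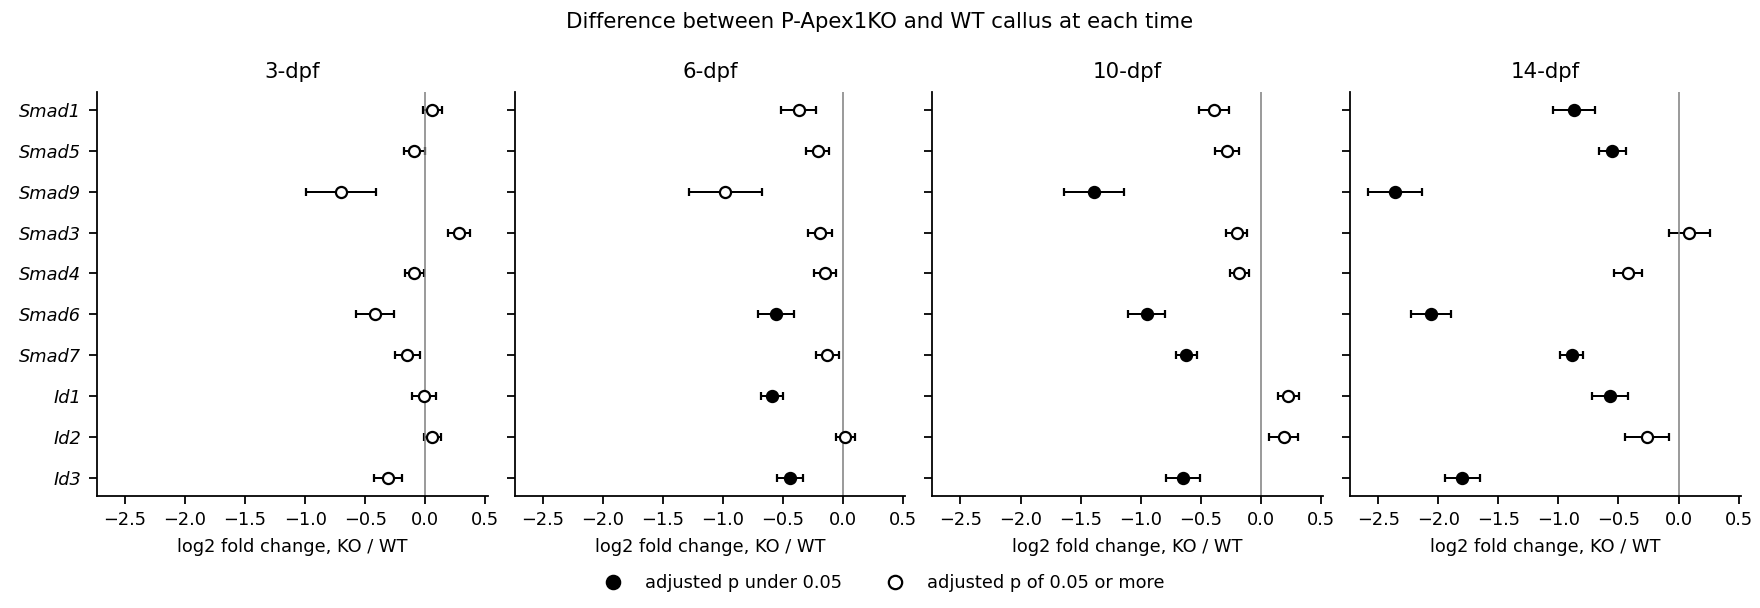
Log2 fold change of each of the 10 genes, P-Apex1KO over WT, at each dpf, with bars for the standard error and filled points for an adjusted p under 0.05 in edgeR. Smad6, Smad9 and Id3 lie furthest below 0 at 14-dpf (-2.06, -2.36 and -1.80), and Id2 and Smad3 stay near 0.

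Changes over time were fitted with 2 times and 4 groups in a model. From 3- to 6-dpf, 6 of 10 genes rose in WT (30.5% of all genes called), and in P-Apex1KO 2 did (14.0%). In WT, Id1 rose by 0.91 ± 0.0828 on the log2 scale (edgeR adjusted p 1.57e-06), Id3 by 0.69 ± 0.104 (adjusted p 0.000132), Smad9 by 0.86 ± 0.276 (adjusted p 0.0277), Smad6 by 0.60 ± 0.144 (adjusted p 0.00486), Smad3 by 0.51 ± 0.082 (adjusted p 0.000247) and Smad1 by 0.35 ± 0.106 (adjusted p 0.0193). In P-Apex1KO, Id1 rose by 0.33 ± 0.0924 (adjusted p 0.0269) and Id3 by 0.58 ± 0.116 (adjusted p 0.00417). The difference between genotypes itself changed for 1 of 10 genes (1.3% of all genes): for Id1 it moved by -0.58 ± 0.124 (adjusted p 0.0332), all 3 P-Apex1KO libraries of 6-dpf being below WT. Smad3 came next at -0.46 ± 0.123 (adjusted p 0.0915, called by DESeq2), and Smad1 gave -0.43 (adjusted p 0.249). Without 1 of 9 mice of 16, namely WT 3-dpf replicate 2, 3 or 4, 3-dpf replicate 2 or 3 labelled P-Apex1KO, WT 6-dpf replicate 4 or 5 or P-Apex1KO 6-dpf replicate 2 or 3, the Id1 call was lost (-0.60 to -0.51, adjusted p 0.0557 to 0.104), as it was with the replicate block in place of sex (-0.56, adjusted p 0.173) and with library size alone (-0.35, adjusted p 0.124, from 0.000847 to 0.173 over the alternatives). In WT, the call of Smad1 was lost without 3-dpf replicate 2 or 3 (0.31 to 0.35, adjusted p 0.054 to 0.0779), with the block (0.32, adjusted p 0.058) or with library size alone (0.11, adjusted p 0.3, from 0.00656) and that of Smad9 without 3-dpf replicate 1, 2 or 3 or 6-dpf replicate 1 or 4 (0.71 to 0.88, adjusted p 0.0519 to 0.107), with the block (0.90, adjusted p 0.0721) or with library size alone (0.62, adjusted p 0.0717, from 0.00633 to 0.0721 over the alternatives). In P-Apex1KO, the call of Id1 was lost without 3-dpf replicate 2 or 4 or 6-dpf replicate 1 or 2 (0.27 to 0.36, adjusted p 0.0554 to 0.135), with the block (0.33, adjusted p 0.0839) or with all 30 samples in 1 model (0.33, adjusted p 0.0614).

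Between 10- and 14-dpf, 4 of 10 genes rose in WT (11.1% of all genes called). Smad6 rose by 0.88 ± 0.141 on the log2 scale (edgeR adjusted p 0.00174), Id3 by 0.69 ± 0.122 (adjusted p 0.00304), Smad9 by 0.71 ± 0.202 (adjusted p 0.0383) and Smad7 by 0.38 ± 0.0823 (adjusted p 0.00968). In P-Apex1KO edgeR called 0 of 10 (0.259% of all genes), with 2 of 10 at an unadjusted p under 0.05, and DESeq2 called 0. The genotype difference changed for 2 of 10 genes (0.436% of all genes): for Id3 by -1.18 ± 0.21 (adjusted p 0.0398) and for Smad6 by -1.23 ± 0.244 (adjusted p 0.0485). For Smad9 (-0.96, adjusted p 0.271), Id1 (-0.60, adjusted p 0.19) and Smad7 (-0.42, adjusted p 0.22) the change missed the threshold, so a wider gap at 14-dpf than at 10-dpf was called for Id3 and Smad6 alone. The Smad6 call was lost without any mouse of 14 but WT 10-dpf replicate 2 and P-Apex1KO 14-dpf replicate 2 (-1.37 to -1.02, adjusted p 0.0578 to 0.154), with no sex term (-0.94, adjusted p 0.0839), with the block (-0.99, adjusted p 0.0606), with the size factors of DESeq2 (-1.20, adjusted p 0.0508) and with library size alone (-1.06, adjusted p 0.151), in a range of 0.000726 to 0.151. The Id3 call was lost without any mouse but those 2 and P-Apex1KO 10-dpf replicate 1 (-1.22 to -0.96, adjusted p 0.0545 to 0.112), and with library size alone (-1.004, adjusted p 0.121, from 8.04e-05). In WT, the call of Smad7 was lost without 10-dpf replicate 3 (0.32, adjusted p 0.0553), and that of Smad9 without WT 10-dpf replicate 1 or 3, P-Apex1KO 10-dpf replicate 3 or any WT mouse of 14-dpf (0.50 to 0.74, adjusted p 0.0527 to 0.121), with no sex term (0.61, adjusted p 0.0957), with all 30 samples in 1 model (0.71, adjusted p 0.0778) or with library size alone (0.65, adjusted p 0.0653), in a range of 0.00628 to 0.0957. Comparisons of 1 genotype at 2 times share libraries with the genotype comparisons above.

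Genes whose level over the 8 group means ran most like each member were found among 13795 genes by Pearson r of log2(CPM + 1), as a description. The means span the change of sample names between 6- and 10-dpf, and a step there shared by 2 genes would raise their r, which was not tested. For Smad1 they were Ctnnd1 (r 0.986), Tcf25 (0.985) and Arl14ep (0.983), and for Smad5 Cdh2 (0.998), Lrrc58 (0.997) and Ubn1 (0.993). For Smad9 they were Dlx3 (0.995), Vstm4 (0.995) and Kazald1 (0.994). Smad3 was matched less closely, by Podxl (0.964), Wnt2b (0.956) and Efnb2 (0.951). Smad4 ran with Cdh2 (0.993), Smad5 (0.992) and Nhsl1 (0.99), Smad6 with Nhsl1 (0.994), Cdc42ep1 (0.993) and Shc2 (0.991), and Smad7 with Map4k4 (0.992), Rad54l2 (0.986) and Ext1 (0.984). The nearest genes to Id3 were Zfp69 (0.99), Cacnb3 (0.987) and Syde2 (0.987), those to Id1 Spcs1 (0.974), Ptdss1 (0.97) and Ergic3 (0.962), and those to Id2 Zkscan14 (0.904), Abhd5 (0.877) and Smim26 (0.866). Among the members, Smad6 and Id3 had an r of 0.98 and Smad9 and Smad5 0.99, whereas Id2 was negative with each SMAD gene, down to -0.42 with Smad9. Id1 stood between, at 0.29 with Smad7 and 0.71 with Id3.

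Other genes of the pathway were read from 8 fixed lists of 70 genes. At 3-dpf edgeR called none of them, with 4 of 69 tested at an unadjusted p under 0.05 and 0 called by DESeq2. Among 6 other targets of BMP SMADs, 3 were lower at 6-dpf, 3 of 5 tested at 10-dpf and 4 at 14-dpf. Of all genes, 5.61%, 3.44% and 7.04% were called lower at these times. The medians of the list were -0.59, -0.89 and -1.32 beside all-gene medians of 0.01, 0.0 and 0.04. Hey1, a transcriptional repressor, was lower at 6-dpf by a log2 fold change of -1.22 ± 0.204 (edgeR adjusted p 0.00687), at 10-dpf by -2.00 ± 0.228 (adjusted p 0.00854) and at 14-dpf by -3.26 ± 0.165 (adjusted p 0.000354). Its mean was 12.8, 30.5 and 62.5 CPM in WT and 5.31, 7.14 and 7.1 CPM in P-Apex1KO at these times, with no overlap. Dlx5, a homeobox factor of bone-forming cells, was lower by -0.89 ± 0.168 (adjusted p 0.0112), -0.96 ± 0.189 (adjusted p 0.0302) and -1.75 ± 0.334 (adjusted p 0.0184), from 22.8, 36.6 and 41.8 CPM in WT to 11.8, 17.6 and 13.1 CPM. The other calls in this list, named after their values were seen, were Runx2 at all 3 times and Msx1 at 14-dpf. Msx2 and Atoh8 gave no call, and Atoh8 was -0.48 ± 0.196 at 6-dpf (adjusted p 0.149) and 0.13 ± 0.161 at 10-dpf (adjusted p 0.689). Whether the listed genes fell through BMP SMADs was not tested. Among 4 other targets of SMAD3, Tgfbi was higher at 10-dpf (0.72 ± 0.159, adjusted p 0.039) with overlapping groups, and it was the only call at any time, with list medians of 0.04, -0.15, 0.04 and 0.45 at 3-, 6-, 10- and 14-dpf.

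BMP and GDF ligands were called lower in 4, 3 and 3 of 10 genes at 6-, 10- and 14-dpf and higher in 1, 0 and 1. Their medians were -0.26, -0.20 and -0.39. Of all genes, 10.9%, 6.46% and 11.3% were called, with medians of 0.01, 0.0 and 0.04. Bmp2, a ligand needed for fracture repair, was 16.2, 14.2, 15.7, 16.8 and 18.0 CPM in WT at 6-dpf and 10.4, 11.7 and 11.2 CPM in P-Apex1KO, and at 10-dpf 27.4, 28.5, 26.0 and 21.1 against 12.6, 13.9 and 11.9 CPM. P-Apex1KO libraries were below WT both times and above it at 3-dpf (10.1, 9.54, 11.6 and 9.37 against 7.75, 7.2, 7.52 and 9.18 CPM, by label). Bmp2 was lower by -0.53 ± 0.117 at 6-dpf (edgeR adjusted p 0.0209) and -0.95 ± 0.117 at 10-dpf (adjusted p 0.00854), with 0.37 ± 0.131 at 3-dpf (adjusted p 0.768) and -0.38 ± 0.163 at 14-dpf (adjusted p 0.176). Its genotype difference moved from 3- to 6-dpf by -0.89 ± 0.159 (adjusted p 0.012). Of ligands with a mean of at least 1 CPM, those with the largest differences at 6-dpf were Gdf5 (-1.82 ± 0.335, adjusted p 0.0114, 19.8 to 5.84 CPM) and Bmp6 (-1.58 ± 0.245, adjusted p 0.00578, 34.2 to 11.1 CPM). At 10-dpf Bmp3 was lower (-0.99 ± 0.169, adjusted p 0.0215), and at 14-dpf Bmp7 was (-1.48 ± 0.285, adjusted p 0.0163) while Gdf5 was higher (3.79 ± 0.716, adjusted p 0.0158). The group means of Gdf5 at 14-dpf, 1.71 and 5.91 CPM, lie closer together than this fitted value, which is set against WT replicate 1 alone. The remaining ligand calls, named after their values were seen, were Bmp8a (lower at 6- and 10-dpf), Gdf6 (higher at 6-dpf), and Bmp3 and Bmp4 (lower at 14-dpf).

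Antagonists of BMPs went both ways: 5 lower and 2 higher of 13 at 6-dpf, 2 higher of 12 at 10-dpf, and 3 lower and 3 higher of 13 at 14-dpf, with medians of 0.08, 0.15 and 0.54. Sost, which blocks WNT and BMP signals in bone, was higher at 6-dpf (1.36 ± 0.249, edgeR adjusted p 0.0111, 18.5 against 42.2 CPM) and lower at 14-dpf (-1.42 ± 0.223, adjusted p 0.0079, 40.9 against 21.7 CPM). Bambi, a decoy receptor induced by the pathway, was lower at 14-dpf (-1.44 ± 0.205, adjusted p 0.00557, 121.2 against 43.5 CPM). Chrdl2 was lower at 6-dpf (-1.31 ± 0.347, adjusted p 0.0415), and Chrdl1 (0.60 ± 0.137, adjusted p 0.0419) and Fst (0.78 ± 0.151, adjusted p 0.0273) were higher at 10-dpf. Other calls, named after their values were seen, included Nog, Chrdl1, Twsg1 and Bambi (lower) at 6-dpf, and Grem1 (lower), Chrdl1 and Fst (higher) at 14-dpf. Chrdl2 was called higher at 14-dpf (7.24 ± 1.6, adjusted p 0.0265), though the groups overlapped at means of 0.672 CPM in WT and 0.818 CPM in P-Apex1KO, the fitted value being against WT replicate 1 alone. Of 13 receptors, 2 were higher at 6-dpf, 1 was lower at 10-dpf and 2 were lower at 14-dpf, near the rate over all genes (10.9%, 6.46% and 11.3% called). The type I receptor gene Tgfbr1 was among them each time, at 0.33 ± 0.0928 (adjusted p 0.0477), -0.80 ± 0.162 (adjusted p 0.0305) and -1.31 ± 0.168 (adjusted p 0.00356, 414.0 against 175.8 CPM). The others were Bmpr1b at 6-dpf (0.56 ± 0.131, adjusted p 0.0253) and the co-receptor gene Eng at 14-dpf (-0.52 ± 0.128, adjusted p 0.0393).

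Among 5 TGF-β and activin ligands, Tgfb1 was lower at 14-dpf (-0.68 ± 0.125, edgeR adjusted p 0.0137), the only call in that list. Regulators of SMADs, 15 genes, gave Tgif2 lower (-0.61 ± 0.16, adjusted p 0.0404) and Nedd4l higher (0.42 ± 0.114, adjusted p 0.0443) at 6-dpf, and Smurf1 (-0.60 ± 0.13, adjusted p 0.0242) and Zfp423 (-0.94 ± 0.187, adjusted p 0.0182) lower at 14-dpf, again near the rate over all genes (10.9% and 11.3%). Smurf1 encodes a ligase that marks BMP SMADs for breakdown. The list of 4 other ID genes and ID partners gave no edgeR call at any time, with 0, 0, 1 and 2 at an unadjusted p under 0.05 and 0, 0, 1 and 0 called by DESeq2 at 3-, 6-, 10- and 14-dpf.

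**Figure D4:**
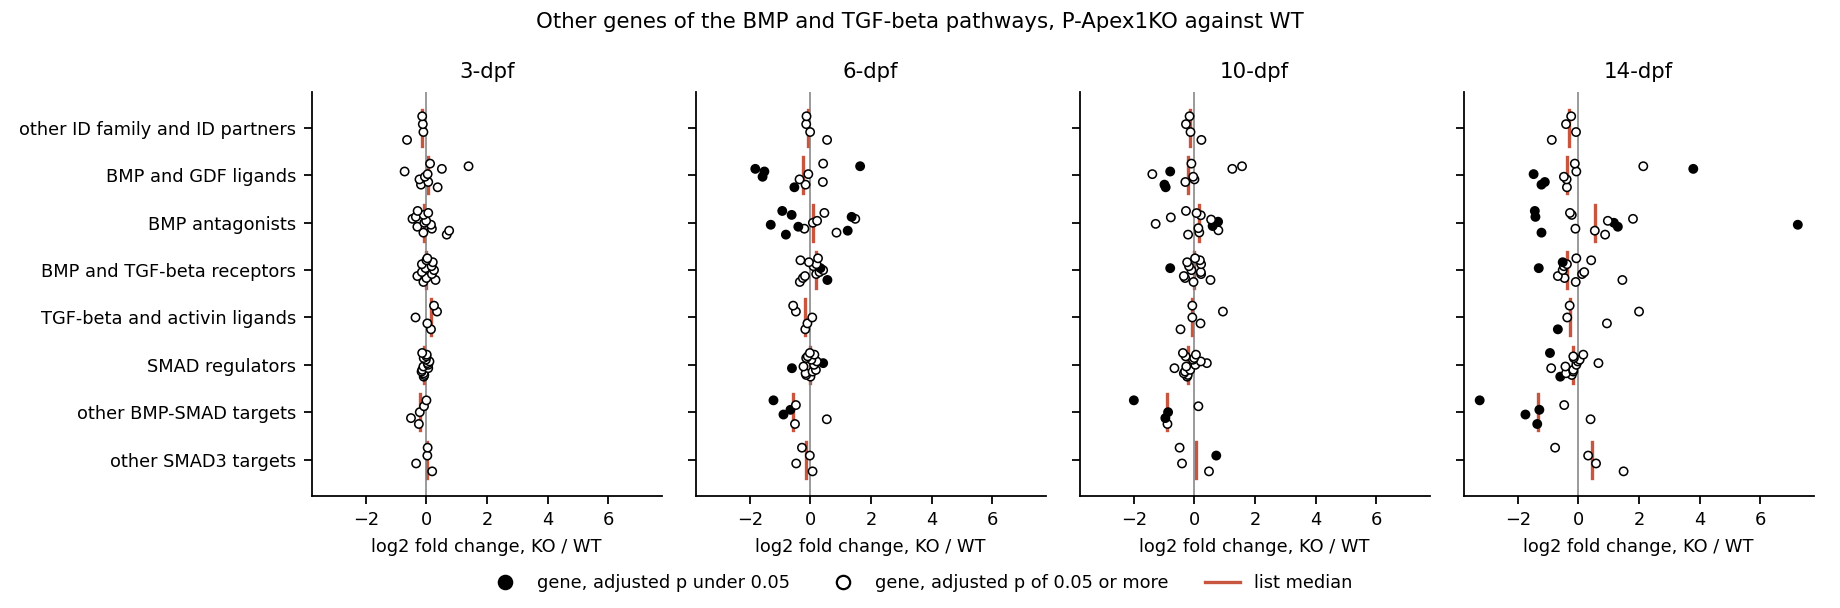
Log2 fold changes (P-Apex1KO over WT) of the genes of the 8 pathway lists at each dpf, 1 point per gene, filled where adjusted p was under 0.05 in edgeR, with a bar at each list's median. Other targets of BMP SMADs move furthest down, to a median of -1.32 at 14-dpf, and antagonists spread to both sides of 0.

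Markers of some cell types were lower at the times when the members were lower, and others were not. For comparison with the counts of markers, 10.9%, 6.46% and 11.3% of all genes were called at 6-, 10- and 14-dpf. The shares called lower were 5.61%, 3.44% and 7.04%. Osteoblast markers (8 genes, Col1a1 the most abundant, Bglap the least abundant in most groups) were called lower in 6, 5 and 5 of 8 at 6-, 10- and 14-dpf. Their summed level was 48625.1, 37781.2, 38124.4, 51773.1 and 43809.2 CPM in WT and 24715.4, 27983.6 and 17652.1 CPM in P-Apex1KO at 6-dpf, and 50322.2, 59399.2, 41782.6 and 41430.5 against 26180.1, 26820.1 and 17399.3 CPM at 10-dpf. At 14-dpf it was 95670.3, 85613.1, 70481.4 and 85939.6 CPM in WT and 17473.6, 17185.7 and 18468.4 CPM in P-Apex1KO. The sums did not overlap at any of these times, nor did the values of Smad6, Smad9 and Id3. Col1a1 supplied most of the sum, with a mean of 78841.8 of 84426.1 CPM in WT and 15229.4 of 17709.2 CPM in P-Apex1KO at 14-dpf. Not all markers followed it. At 14-dpf Ibsp (-0.05, edgeR adjusted p 0.95) and Bglap2 (-2.31, adjusted p 0.176) overlapped between the groups and were not called. Osteoclast markers (6 genes, Mmp9 on top except for Ctsk in P-Apex1KO at 10-dpf) were called lower in 5 of 6 at 10-dpf and 6 of 6 at 14-dpf. At 10-dpf their sum was 7317.1, 5729.3, 3219.3 and 5336.7 CPM in WT and 1359.6, 1893.4 and 1129.5 CPM in P-Apex1KO, and at 14-dpf 13217.3, 12461.4, 11777.8 and 13066.3 against 2900.9, 2198.5 and 1516.0 CPM. Calcr was the least abundant of them, with group means of 0.163 CPM in WT at 3-dpf to 5.19 CPM in WT at 14-dpf.

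Chondrocyte markers (10 genes, Col2a1 the most abundant in WT at 6- and 10-dpf) were called lower in 10 of 10 at 6-dpf. Their sum was 34225.9, 45948.2, 40080.6, 44616.1 and 59754.2 CPM in WT and 5542.0, 4541.7 and 3015.7 CPM in P-Apex1KO, beside the lower Id1, Smad6 and Id3 of that time. At 10-dpf edgeR called none of the 10, with 2 at an unadjusted p under 0.05 and 2 called by DESeq2. At 14-dpf 9 were called higher and 1 lower against WT replicate 1, the WT mouse with the lowest sum, although 7 of those 9 overlapped between the genotypes, as did the sums (3083.4 to 8203.5 CPM in WT, 5414.8 to 6560.5 in P-Apex1KO). Col2a1 was among the 9 (1.84 ± 0.331, adjusted p 0.0132) with a group mean of 2183.2 CPM in WT and 1839.6 CPM in P-Apex1KO. Matn1 was near 0 at 3-dpf (0.0174 CPM in WT). Endothelial markers (10 genes) were called lower in 1 at 10-dpf and 5 at 14-dpf, where Vwf was higher, and their sum at 14-dpf was 1012.0, 1071.8, 1071.9 and 1122.5 CPM in WT and 760.2, 746.8 and 877.5 CPM in P-Apex1KO. At 3-dpf all sums of these 4 lists overlapped between the labels. WT 10-dpf replicate 3, the lowest WT library of its time for Smad6, Smad7, Smad9 and Id3, had the lowest osteoclast sum of WT at that time (3219.3 CPM) and the highest chondrocyte sum (49375.9 CPM). Its osteoblast sum (41782.6 CPM) was not the lowest, which was that of WT 10-dpf replicate 4 (41430.5 CPM). P-Apex1KO 6-dpf replicate 3, the lowest of its group for Smad1, Smad6, Smad9 and Id3, had the lowest osteoblast and chondrocyte sums. The highest osteoblast sum of that group was in replicate 2 (27983.6 CPM), but its highest Smad6 was in replicate 1 (14.1 CPM). Muscle markers (10 genes, Acta1 on top at 6-dpf) were called higher in 8 of 10 at 6-dpf, with sums of 5025.2, 3989.3, 4006.2, 2942.4 and 2729.3 CPM in WT and 6468.9, 14995.6 and 9512.7 CPM in P-Apex1KO. EdgeR called none of the muscle markers at 3-, 10- and 14-dpf, with 9, 9 and 0 at an unadjusted p under 0.05 and 4, 3 and 1 called by DESeq2. Muscle sums overlapped at those times, at 3173.0 to 4468.7 CPM in WT and 4409.2 to 10832.4 in the libraries labelled P-Apex1KO at 3-dpf, and 1077.3 to 3332.2 against 2927.3 to 6163.4 CPM at 10-dpf. Macrophage markers (8 genes, Csf1r on top) were called higher in 7, 5 and 6 of 8 at 6-, 10- and 14-dpf and lower in 2 at 14-dpf. Their sum at 6-dpf was 909.8, 827.3, 722.2, 836.6 and 676.9 CPM in WT and 1263.8, 1474.0 and 1350.9 CPM in P-Apex1KO, higher in 3 of 3 mice. At 10-dpf it ranged from 616.2 to 807.0 CPM in WT and from 820.7 to 950.7 in P-Apex1KO, and at 14-dpf the sums overlapped, with means of 1100.9 CPM in WT and 1099.3 CPM in P-Apex1KO. The part of these cell types in the results was not tested.

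**Figure D5:**
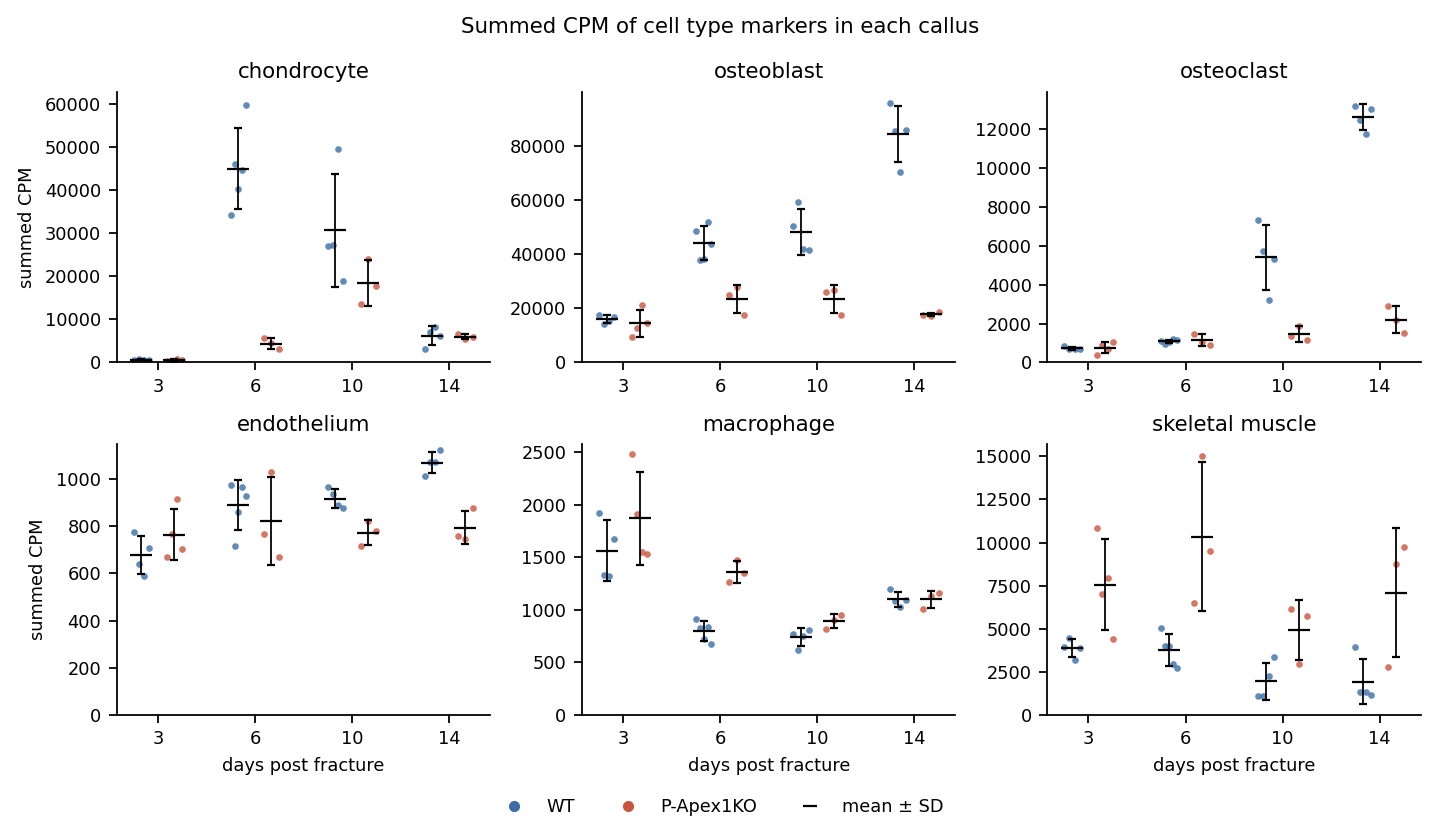
Summed CPM of the markers of 6 cell types (vertical axis) by dpf, with 1 point per mouse for WT and P-Apex1KO and bars for the mean with SD. Osteoblast sums in WT reach 70481.4 to 95670.3 CPM at 14-dpf against 17185.7 to 18468.4 in P-Apex1KO, and osteoclast sums part at 10- and 14-dpf.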

How the data were processed

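The authors deposited raw read counts per gene for 30 callus libraries of stranded total RNA. The submitters' processing notes name bcl2fastq 2.20, STAR 2.7.0d, featureCounts and DESeq2 1.32.0. Genotype, time, sex and replicate number came from the labels. Each time was fitted separately in R 4.3.3 with edgeR 4.0.16, using filterByExpr, TMM, a model of genotype plus sex, and robust quasi-likelihood F tests. A gene was called at a p under 0.05 after Benjamini-Hochberg adjustment across the genes tested. Models with 4 groups gave changes over time; 6- and 10-dpf were not compared. Standard errors divide the size of the log2 fold change by the root of F. With 3 to 5 mice in a group, precision is limited by the mice, and for Smad9 also by its counts.

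Pairing by the replicate numbers in the labels was checked by correlating the deviations of same-numbered samples from their group means: r was 0.126 to 0.5 at 3-dpf, -0.124 to 0.126 at 6-dpf, -0.229 to 0.275 at 10-dpf and -0.373 to -0.104 at 14-dpf. For 9 of 13 numbers a sample of another number matched better. Levels per kb used the canonical transcript of the GENCODE annotation, and promoters came from RefSeq. The members and lists were chosen with earlier results of these data known. A rule set the named genes: per list and time, the 2 called genes with the largest log2 fold change in either direction and a mean of at least 1 CPM, plus Apex1, Bmp2 and the 3 genes most like each member. Of the calls in the pathway lists, 1 gene counted in them is not reported here by name. The alternatives were DESeq2 1.42.0, leaving out sex, size factors of DESeq2, library size alone and leaving out the 20 most abundant genes. Others were a minimum of 10 counts per sample, keeping all genes with a count and a joint model of the 30 samples. A block for the replicate number in place of sex was also used. Each mouse was left out in turn as well, and ranges of adjusted p over the alternatives do not include those fits. The fit of genotype within each time was tested on simulated data with large changes and no effect of sex. Smaller changes and the fits over time were not simulated.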

Additional observations from a re-analysis of the deposited data

Results flagged for a closer look

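Smad7 in WT 6-dpf replicate 4 stood at 44.8 CPM, far from the other WT libraries of that time (35.2 to 37.8 CPM). Id2 in WT 3-dpf replicate 4 stood at 45.8 CPM, above the others at 42.4 to 42.8 CPM. Id2 in WT 6-dpf replicate 5 stood at 50.4 CPM, above the others at 45.2 to 45.4 CPM. Id3 in WT 10-dpf replicate 3 stood at 141.7 CPM, below the others at 184.6 to 193.1 CPM. In each of these groups the gap to the nearest library was large against the whole range of the group. The check covered 50 groups of 4 or 5 libraries, and by chance about 1 in 20 groups gives such a gap. The genotype difference of Id1 changed from 3- to 6-dpf by -0.58 ± 0.124 on the log2 scale (edgeR interaction, adjusted p 0.0332), a call lost with the replicate number as a block in place of sex (-0.56, adjusted p 0.173), with library size alone (adjusted p 0.124) and without 9 of 16 mice in turn. The genotype difference of Smad6 changed from 10- to 14-dpf by -1.23 ± 0.244 (adjusted p 0.0485), a call lost with the block (-0.99, adjusted p 0.0606), with no sex term (adjusted p 0.0839), with the size factors of DESeq2 (adjusted p 0.0508), with library size alone (adjusted p 0.151) and without 12 of 14 mice in turn. The genotype difference of Id3 changed from 10- to 14-dpf by -1.18 ± 0.21 (adjusted p 0.0398), and that call was lost with library size alone (adjusted p 0.121) and without 11 of 14 mice in turn.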

How the results depend on the processing

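Of 460 log2 fold changes recomputed with all mice for 55 results, 411 kept their direction and their side of the threshold, 26 lost a call, 10 gained one and 13 turned sign. With 1 mouse left out, 421 of 518 kept both, 83 lost a call, 6 gained one and 8 turned sign. Smad6, Smad7, Smad9 and Id3 at 14-dpf kept their calls in all of these, though each of those fits kept WT replicate 1, the mouse the fold change with sex rests on. Values that turned sign were uncalled: Id1 at 3-dpf was 0.01 with no sex term and -0.08 to 0.09 with 1 mouse left out; Smad1 at 3-dpf was -0.03 to 0.09 with 1 mouse left out. With library size alone Smad4 was 0.03 and Smad7 0.06 at 6-dpf, and Id2 0.00 at 14-dpf. Id2 at 6-dpf was 0.00 with no sex term, -0.03 with all 30 samples in one model and -0.02 to 0.05 with 1 mouse left out. At 14-dpf Smad3 was -0.11 with no sex term and -0.13 with all 30 samples, and Id2 0.00 with no sex term. DESeq2 with no sex term, chosen after seeing the data, gave -0.11 for Smad3 and 0.00 for Id2.

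Counts of all genes called were 0 at 3-dpf but 78 with DESeq2, 4 with no filter and 38 with all 30 samples, and 0 to 10 with 1 mouse left out. At 6-dpf 2212 became 3594 with library size alone and 890 to 2359 with 1 mouse left out. At 10-dpf 1221 became 2160 with DESeq2, 750 with no sex term and 42 to 1827 with 1 mouse left out. At 14-dpf 2289 became 6849 with no sex term, 6188 with all 30 samples, 7340 with DESeq2 and no sex term, and 1206 to 3773 with 1 mouse left out. The members called were 3 at 6-dpf, but 1 with library size alone, 6 with all 30 samples and 1 to 6 with 1 mouse left out. They were 4 at 10-dpf (0 to 4 with 1 mouse left out) and 7 at 14-dpf (4 with library size alone, 4 to 8 with 1 mouse left out). The genotype difference changed from 3- to 6-dpf for 1 member, 2 with DESeq2 (Id1 and Smad3), 0 with library size alone and 0 to 1 with 1 mouse left out, and from 10- to 14-dpf for 2, 1 with no sex term, 1 with DESeq2's size factors, 0 with library size alone and 0 to 2 with 1 mouse left out. In WT the 6 members of 3- to 6-dpf were 4 to 6 and the 4 of 10- to 14-dpf 2 to 5 with 1 mouse left out. In P-Apex1KO the 2 members of 3- to 6-dpf were 1 with all 30 samples and 1 to 2 with 1 mouse left out; the 0 of 10- to 14-dpf was 1 (Id1) with no sex term or all 30 samples, and 0 with each mouse left out. The cause of these changes was not tested.

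With the replicate number as a block in place of sex, a pairing by label, 1 gene was called at 3-dpf and no other call changed at that time; Id1 was 0.01 there. The block gave 677 genes and 0 members at 6-dpf (Id1 -0.52, adjusted p 0.0503, from 2.41e-06 over the alternatives), -0.06 for Smad3 at 14-dpf, 0 members whose genotype difference changed from 3- to 6-dpf and 1 from 10- to 14-dpf, and in P-Apex1KO 1 member over each interval. It also lost the 10-dpf call of Id3 (-0.63, adjusted p 0.0529) and the WT calls of Smad1 and Smad9 from 3- to 6-dpf (adjusted p 0.058 and 0.0721), and called Smad4 at 14-dpf (-0.43, adjusted p 0.0406).

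The 14-dpf fit without WT replicate 1, the only WT female, could not be fitted with sex. Genotype at 14-dpf is therefore read from that mouse and 3 P-Apex1KO females. Bulk counts do not separate cell types, protein levels and SMAD phosphorylation were not measured, and the 3-dpf labels are not separated by Apex1. With 3 to 5 mice per group many calls rest on single mice. Smad9, with 46 reads in its lowest library, carries counting error.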

Other observations

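Among other cell types of the callus, hypertrophic chondrocyte markers (5 genes) were called lower in 4 of 5 at 6-dpf and 2 of 5 at 10-dpf, and higher in 2 of 5 at 14-dpf, where both genes overlapped between the groups. Their mean sum was 5053.6 CPM in WT and 963.5 CPM in P-Apex1KO at 6-dpf, with Col10a1 on top in WT (3528.7 CPM) and Mmp13 in P-Apex1KO (464.3 CPM). Neutrophil markers (7 genes) were called higher in 5 of 7 at 14-dpf, with mean sums of 1567.9 CPM in WT and 2848.3 CPM in P-Apex1KO. Erythroid markers (6 genes) were called higher in 4 of 6 at 14-dpf, with mean sums of 814.4 and 1951.9 CPM. T and NK cell markers (6 genes) were called higher in 3, 2 and 1 of 6 at 6-, 10- and 14-dpf, with Cd3g near 0 (0.52 CPM in WT at 10-dpf). Of all genes, 10.9%, 6.46% and 11.3% were called at these times. B cell markers (6 genes) were called higher in 1 of 6 at 6-dpf (Cd79b, with overlapping groups), and Pax5 was their most abundant gene in each group. At 10- and 14-dpf edgeR called none, with 3 and 6 at an unadjusted p under 0.05 and 1 and 4 called by DESeq2. Their sums at 14-dpf did not overlap, at 87.0 to 134.7 CPM in WT and 184.7 to 604.7 CPM in P-Apex1KO.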
